A study of Arabidopsis thaliana with 3 samples.

Results

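The genes described here encode the machinery that makes cellulose in the primary walls of growing plant cells. They are 10 Arabidopsis thaliana genes picked by locus on the array, namely the cellulose synthase genes CESA1 (AT4G32410), CESA2 (AT4G39350), CESA3 (AT5G05170), CESA5 (AT5G09870), CESA6 (AT5G64740) and CESA9 (AT2G21770) and the partner genes CSI1 (AT2G22125), KOR1 (AT5G49720), COB (AT5G60920) and CTL1 (AT1G05850). Each had a single probe on the array, and the 10 stand among 25665 loci with a probe, of which 19922 gave a signal bright enough to test. All 10 were well above background in both genotypes on every array.

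Whole seedlings that carry 35S:AtIBH1-SRDX in the Col-0 background were compared with wild-type Col-0 seedlings at 10 days, and both had been kept at 23 °C on agar medium that held 1% sucrose, with days of 16 h light and 8 h dark. IBH1, of the helix-loop-helix class, restrains elongation of cells, SRDX is a short repression domain, and the 35S promoter is active in most tissues. How many transgenic lines the seedlings came from is not stated in the labels. RNA of the genotypes was hybridised together on 3 Agilent 2-colour arrays, 1 for each biological replicate, with the dyes swapped on array 2. In these whole seedlings, fewer cells of a type and less RNA per cell cannot be told apart.

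Cellulose is spun out at the plasma membrane by rosette-shaped complexes of cellulose synthases, which add glucose from UDP-glucose to growing glucan chains. Primary wall complexes need CESA1, CESA3 and a further subunit from the CESA6-like group, which is CESA6 itself or its relatives CESA2, CESA5 and CESA9. CSI1 ties the moving complexes to cortical microtubules, KOR1 is a membrane-bound endoglucanase that travels with them, COB is a membrane-anchored wall protein needed for oriented cellulose deposition, and CTL1 is a chitinase-like protein needed for normal cellulose. Loss of core members gives short, swollen roots and hypocotyls, so the group is a standard part of studies of cell elongation.

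Each ratio sets IBH1-SRDX over wild type on the log2 scale, after normalization within the array, and a mean is given ± SE from limma with n = 3. A gene is called when limma's p, adjusted over all 19922 loci, is below 0.05. The SE draws on the spread pooled over genes, so array values are printed beside it. The arrays were similar in quality, with 58.8% to 63.5% of spots well above background in a channel, no saturated spot, and correlations of log ratios across loci between 0.808 and 0.884. Raw signals of the 10 probes ran from 162 units (CESA9) to 49953 units (CESA3) over local backgrounds of 47 to 72.5 units. The weakest spot of CESA9 was 3.12 times its background. The number of arrays limits the precision. The native IBH1 gene's probe read lower in IBH1-SRDX (-0.71 ± 0.09, adjusted p = 0.00118). Where that probe binds is not known here, so it does not check the labels.

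CESA3 and CSI1 were lower in IBH1-SRDX, CESA9 was higher, and the other 7 genes were not called. The changes were small, with mean ratios of the 10 genes between -0.44 and 0.37. Calls therefore fell on 2 of 10 members downward and 1 of 10 upward, while 19.8% of all loci were called lower and 18.5% higher. The members were thus called about as often as any locus on the array. Their median log2 ratio was -0.15, beside -0.000302 over all loci tested. A mean below 0 was found for 8 of the 10, beside 9967 of the 19922 loci tested. Calls over all loci were 51.7% downward, against 72.0% with the deposited series table and 62.7% with outlier local backgrounds kept.

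**Figure D1:**
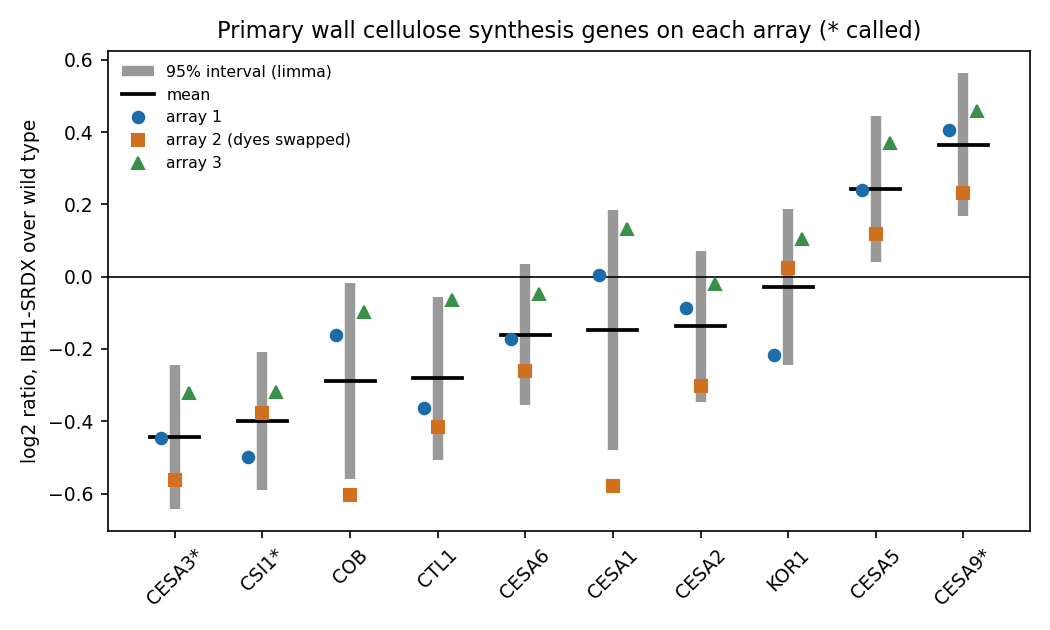
Log2 ratio of IBH1-SRDX over wild type (vertical axis) of the 10 genes, ordered by mean, with a point for each of 3 arrays, a black bar for the mean and a grey bar for limma's 95% interval. Asterisks mark the called genes CESA3, CSI1 and CESA9, whose intervals lie clear of 0, and array 3 gives the highest point for all 10 genes.

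CESA3 and CESA1 are the core catalytic subunits that no other isoform replaces in the primary wall. The normalized log2 signal of CESA3 was 14.54, 14.49 and 14.67 in IBH1-SRDX on arrays 1, 2 and 3, and 14.99, 15.06 and 14.996 in wild type. The genotypes did not overlap, and every array showed the lower signal in IBH1-SRDX. The ratios were -0.45, -0.56 and -0.32, with a mean of -0.44 ± 0.08 (95% interval -0.64 to -0.24, adjusted p = 0.00643). On a linear scale the signal fell by 26.5%. A ratio this low or lower was found for 11.2% of all loci tested.

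CESA1 gave a different picture. Its normalized log2 signal was 13.36, 12.91 and 13.35 in IBH1-SRDX against 13.36, 13.49 and 13.22 in wild type. The genotypes overlapped, and only array 2 stood apart, with a ratio of -0.58 beside 0.01 and 0.13 on arrays 1 and 3. Its mean was -0.15 ± 0.14 (95% interval -0.48 to 0.19, adjusted p = 0.444), so a fall as large as that of CESA3 lies within the interval. The SD over arrays, 0.38, was the widest of the 10 genes. Without replicate 2 the mean of CESA1 was 0.069, above 0, and with a dye term it was called lower at -0.25 (adjusted p = 0.0282). In the dye term fit array 2 weighs as much as arrays 1 and 3 together, so that mean leans on array 2. Limma called a dye effect at 0 loci.

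The CESA6-like isoforms, which share the remaining position in the complex, did not move together. CESA6 is the main isoform of this group in elongating seedling tissue, and its ratios were -0.17, -0.26 and -0.05 (mean -0.16 ± 0.08, 95% interval -0.36 to 0.03, adjusted p = 0.166). CESA2, which can in part replace CESA6, had ratios of -0.09, -0.30 and -0.02 (mean -0.14 ± 0.09, 95% interval -0.35 to 0.07, adjusted p = 0.261). Both stood below 0 on each array, and neither was called.

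CESA5 and CESA9 lay on the other side of 0. CESA5, known for its part in seed coat mucilage and as a partial substitute for CESA6, had normalized log2 signals of 11.63, 11.64 and 11.76 in IBH1-SRDX and 11.39, 11.52 and 11.39 in wild type. The genotypes did not overlap, and its ratios were 0.24, 0.12 and 0.37 (mean 0.24 ± 0.08, 95% interval 0.04 to 0.44, adjusted p = 0.0606). Without replicate 2 it was called higher, at 0.31 (adjusted p = 0.0288). CESA9, known for cellulose in the seed coat, had signals of 8.13, 7.98 and 8.08 against 7.72, 7.75 and 7.62. It too was higher in IBH1-SRDX on every array, with ratios of 0.41, 0.23 and 0.46 and a mean of 0.37 ± 0.08 (95% interval 0.17 to 0.56, adjusted p = 0.0137). That mean is 28.9% more signal.

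CESA9 had the lowest raw signal, and its value differed between preparations. The mean was 0.66 (called) with the scanner program's own log ratio, which replaces both the background step and the dye normalization, and 0.24 (adjusted p = 0.157) with outlier local backgrounds kept. The call also ended without replicate 1 (0.35, adjusted p = 0.092) and without replicate 3 (0.32, adjusted p = 0.0649), and the direction held under all 12 alternatives. Seed markers stood beside it as follows. Of 4 seed markers, SESA1 was not well above background in either genotype and OLE1 was so in IBH1-SRDX on 1 array. The seed storage gene CRU1 was not well above background in wild type. With wild-type signal held at or above a floor, its mean over arrays was 3.46-fold higher in IBH1-SRDX, and 2.14-fold without replicate 1. Its log2 ratios were 3.28, 0.88 and 1.32 on arrays 1, 2 and 3, so the arrays differed widely. It passed the filter through IBH1-SRDX alone, so no p is given, and it was not tested where both genotypes had to be above background. CRU3 was not called. The summed signal of these 4 probes was 432 to 1324 units in IBH1-SRDX and 265 to 377 in wild type. None of 4 pollen markers was well above background in either genotype. The part of seed-type RNA in the CESA9 value was not tested.

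**Figure D2:**
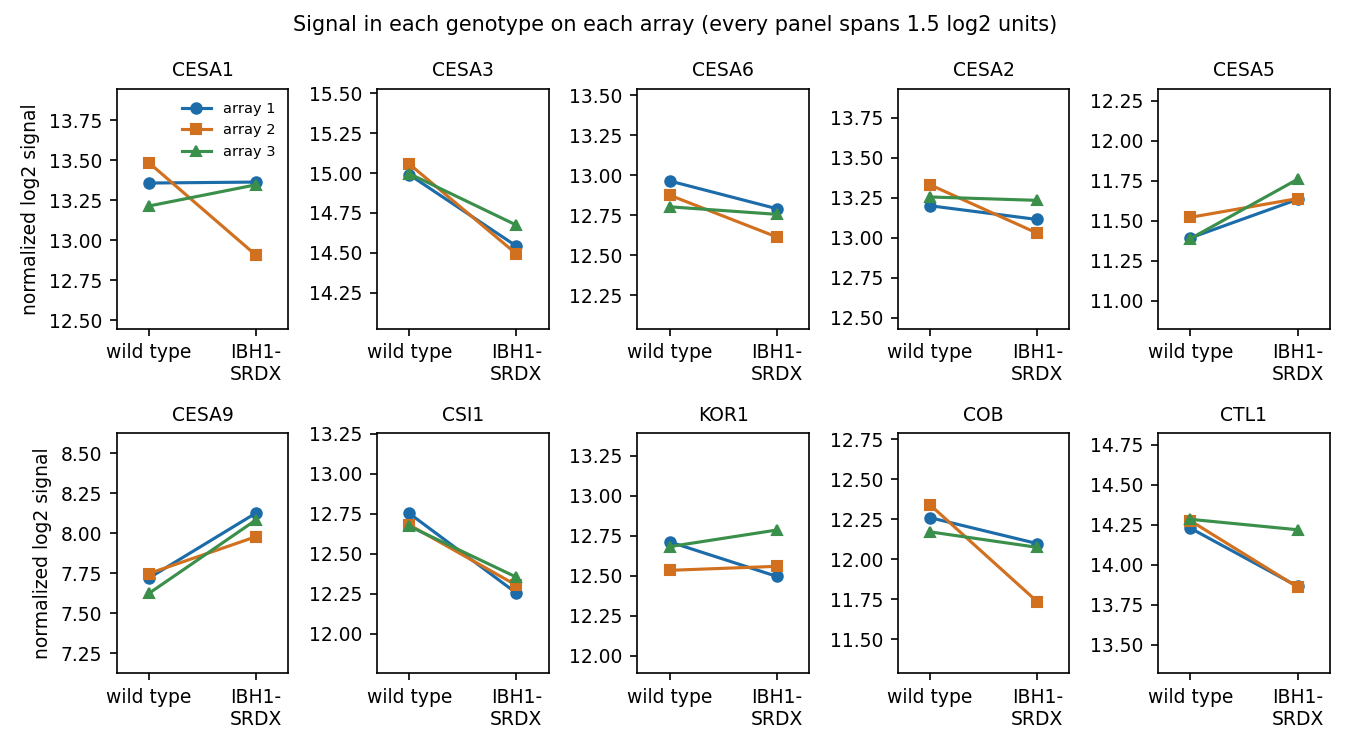
Normalized log2 signal of each gene in wild type and in IBH1-SRDX, with a line for each of 3 arrays and every panel spanning the same number of log2 units. The lines of CESA3 and CSI1 all go down, those of CESA5 and CESA9 all go up, and those of CESA1 and KOR1 differ in direction between arrays.

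Within the CESA6-like group the split was the same on every array. On array 1 the lower of CESA5 and CESA9 was at 0.24 and the higher of CESA2 and CESA6 at -0.09. These bounds were 0.12 and -0.26 on array 2 and 0.37 and -0.02 on array 3, so the pairs did not overlap on any array. The mean of CESA5 and CESA9 exceeded that of CESA2 and CESA6 by 0.454, 0.456 and 0.45 on the 3 arrays, in both dye orientations (mean 0.453, SD 0.00325, n = 3). The pairs were formed after the values were seen, so this is a description with no test. The difference was 0.364 to 0.624 over the 12 alternatives. Its SD was computed for the loess preparation alone. With median centring, ratios on arrays 1, 2 and 3 were -0.19, 0.69 and -0.11 for CESA5 and 0.20, 0.44 and 0.25 for CESA9. Those of CESA2 were -0.57, 0.32 and -0.57 and those of CESA6 -0.64, 0.34 and -0.58, so the gap was less even. CESA5 and CESA9 were also dimmer, with lowest raw signals of 1790 and 162 units against 6150 for CESA2 and 4473 for CESA6. Probe sequences were not used here, and whether probes of these related genes share signal was not tested.

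Direct differences between CESA1, CESA3 and CESA6, the isoforms of the main primary wall complex, were compared within arrays. CESA3 stood below CESA6 by 0.27, 0.30 and 0.28 on arrays 1, 2 and 3 (mean difference of log2 ratios -0.28, SD 0.0154). CESA3 stood below CESA1 on arrays 1 and 3 but not on array 2, with differences of -0.45, 0.02 and -0.45. CESA1 and CESA6 differed by a mean of 0.01 with an SD of 0.29. With 3 arrays an exact two-sided sign-flip permutation test cannot go below 0.25. It gave p = 0.25 for CESA3 against CESA6, p = 0.5 for CESA3 against CESA1 and p = 1 for CESA1 against CESA6, with 0.75, 0.75 and 1 after adjustment over the 3 exact tests. The mean gap between CESA3 and CESA6 was larger than its SD over arrays, and no test other than the sign-flip was run on it.

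Of the partner genes, CSI1 was called and the others were not. The normalized log2 signal of CSI1, the link to microtubules, was 12.26, 12.30 and 12.35 in IBH1-SRDX and 12.75, 12.68 and 12.67 in wild type. No array overlapped, and the ratios were -0.50, -0.38 and -0.32 (mean -0.40 ± 0.08, 95% interval -0.59 to -0.21, adjusted p = 0.00831). On a linear scale the signal fell by 24.1%. Without replicate 1 the call ended, at -0.35 and an adjusted p of 0.0772. CSI1 had the smallest SD over arrays among the 10 genes, at 0.0916.

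COB and CTL1 lay between CSI1 and the uncalled synthases. COB had ratios of -0.16, -0.61 and -0.10, with a mean of -0.29 ± 0.11 (95% interval -0.56 to -0.02, adjusted p = 0.0882). CTL1 had ratios of -0.36, -0.42 and -0.07, with a mean of -0.28 ± 0.10 (95% interval -0.51 to -0.05, adjusted p = 0.0552). Both were below 0 on each array, and array 2 was the lowest for each. Without replicate 3 both were called, COB at -0.38 (adjusted p = 0.0278) and CTL1 at -0.39 (adjusted p = 0.0209), and with a dye term both were called as well (-0.37, adjusted p = 0.00725, and -0.31, adjusted p = 0.0288). In that dye term fit array 2, the lowest for both genes, weighs as much as arrays 1 and 3 together. Without replicate 2 the mean of COB was -0.13.

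KOR1, the endoglucanase, had the mean nearest to 0 of the 10. Its ratios were -0.22, 0.03 and 0.10, a mean of -0.03 ± 0.09 (95% interval -0.25 to 0.19, adjusted p = 0.825). The genotypes overlapped in normalized signal, and without replicate 1 the mean was 0.064. In this comparison KOR1 mRNA therefore had no settled direction.

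Signals of the genotypes did not overlap for 5 members in the lower direction (CESA3, CESA6, CSI1, COB and CTL1) and for 2 in the higher (CESA5 and CESA9). Over all loci measured on each array, 27.3% were separated in the lower direction and 26.7% in the higher. Ordered from lowest to highest mean, the genes ran CESA3, CSI1, COB, CTL1, CESA6, CESA1, CESA2, KOR1, CESA5 and CESA9. Of the 9 gaps between neighbours, 3 exceeded the SD of that gap over arrays, namely CTL1 to CESA6 (0.12, SD 0.0905), KOR1 to CESA5 (0.27, SD 0.18) and CESA5 to CESA9 (0.12, SD 0.0395). From CESA3 to CTL1, and from CESA6 to KOR1, neighbours did not differ beyond their spread.

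**Figure D3:**
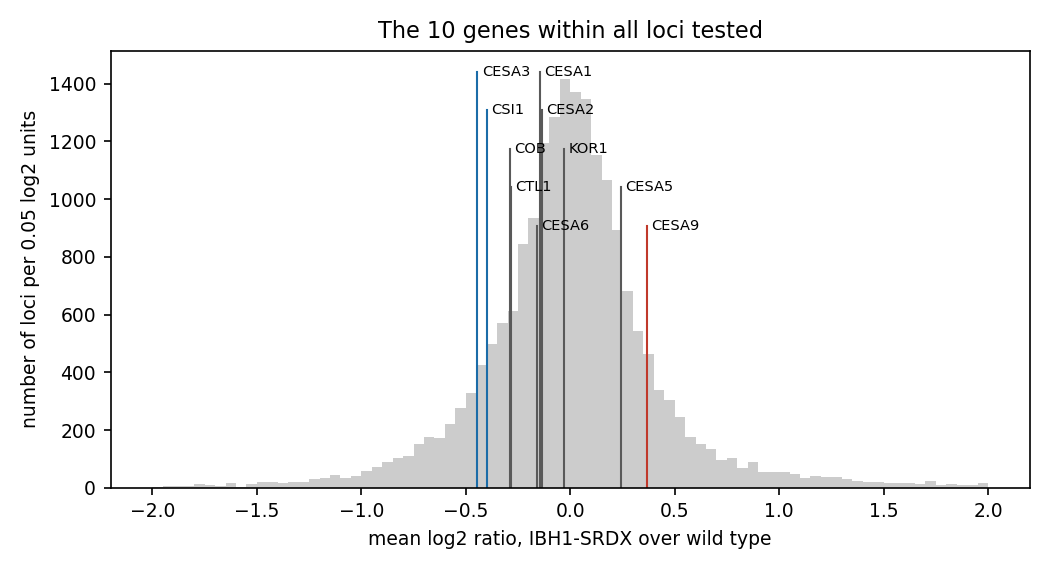
Number of loci (vertical axis) by mean log2 ratio of IBH1-SRDX over wild type in bins of 0.05, with a vertical line for each of the 10 genes in blue (called lower), red (called higher) or grey (not called). The genes lie within the bulk of the distribution, CESA3 at the lowest 11.2% and CESA9 at 86.3% of ranks, and 182 loci beyond 2 in either direction are not drawn.

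The ratios of the 10 genes differed between arrays, by unequal amounts. Array 2, with the swapped dyes, gave the lowest ratio for 8 of the 10 genes and array 3 the highest for all 10. CSI1 and KOR1 were lowest on array 1. The share of all loci with such an order was not computed. The members' median was -0.17, -0.34 and -0.03 on arrays 1, 2 and 3, while that of all loci was -0.00341, 0.00651 and -0.00729. Dye orientation and replicate 2 cannot be told apart here, since 1 array carries the swap. Before loess, ratios of CESA3 were -1.58, 0.71 and -1.37, so the dye correction was larger than the change that was called. With median centring in place of loess, which takes no account of brightness, the CESA3 ratios were -1.01, 0.11 and -0.97 and no member was called.

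**Figure D4:**
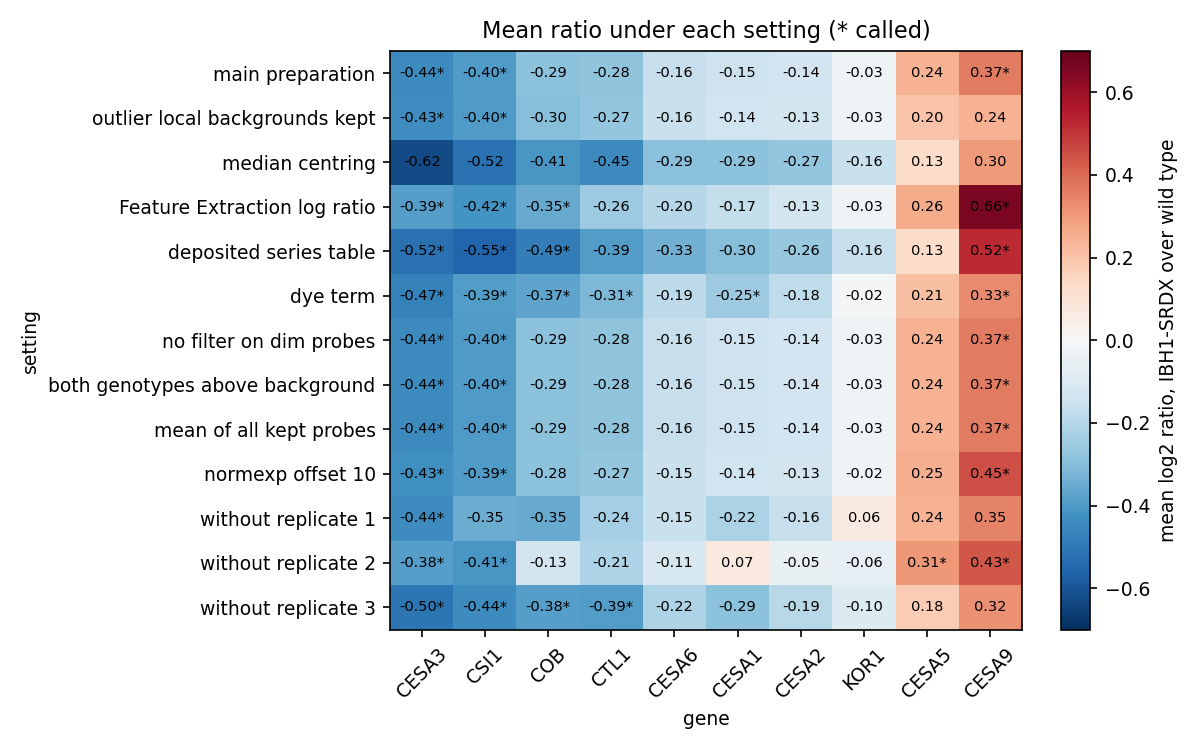
Mean log2 ratio of IBH1-SRDX over wild type of each gene (columns, in the order of the main means) under the main preparation and 12 alternatives (rows), with colour for the value and an asterisk for a call. CESA3 keeps its call in 11 of the 12 alternatives, CSI1 in 10 and CESA9 in 8, and KOR1 and CESA1 each change sign in 1.

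Relatives of the 10 genes gave a mixed picture by family. The cellulose synthases of secondary walls, CESA4, CESA7 and CESA8, build cellulose in xylem and fibres. All 3 were lower, beside 19.8% of all loci called lower. CESA4 stood at -0.62 ± 0.08 (-0.63, -0.54 and -0.68 on the arrays, adjusted p = 0.00134), CESA8 at -0.40 ± 0.09 (adjusted p = 0.0144) and CESA7 at -0.33 ± 0.08 (adjusted p = 0.0176). CESA10, a close relative of CESA1, was not called at -0.16 ± 0.12 (adjusted p = 0.32), and like CESA1 it was low on array 2 alone (-0.03, -0.50 and 0.05). Without replicate 1 the calls of CESA7 and CESA8 ended, and without replicate 3 that of CESA7.

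Among relatives of the partners, the CSI1 relative CSI3 (AT1G77460) was lower at -0.39 ± 0.08 (adjusted p = 0.00793, not called without replicate 1), and CSI2 was not well above background. CTL2, the close relative of CTL1 that acts in secondary walls, was lower at -0.73 ± 0.08 (adjusted p = 0.000726). The KOR1 relative KOR3 was higher at 0.33 ± 0.10 (adjusted p = 0.0347, not called without replicate 1 or 2), and KOR2 was not called at -0.18 ± 0.08. Of the 10 relatives of COB, 8 were tested, with 2 higher, 2 lower and 4 not called, beside 18.5% higher and 19.8% lower over all loci. COBL5 stood at 1.04 ± 0.09 and COBL2, which acts in seed coat cellulose, at 0.50 ± 0.08, while COBL7 stood at -0.50 ± 0.08 and the secondary wall gene COBL4 at -0.38 ± 0.08. Adjusted p for these 4 lay between 0.000257 and 0.00933, and without replicate 1 the call of COBL4 ended.

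The 11 loci listed for assembly, trafficking and microtubule attachment of the complexes had 4 lower, 1 higher and 6 not called, with a median of -0.25, beside 19.8% lower and 18.5% higher over all loci. The kinesin light chain-related gene KLCR2 was lower at -0.74 ± 0.08 (adjusted p = 0.000805). The loci AT2G41770 at -0.48 ± 0.08, AT5G06970 at -0.38 ± 0.08 and AT3G57420 at -0.27 ± 0.09 (adjusted p = 0.0418, not called when any replicate was left out) were lower, and AT1G16860 was higher at 0.45 ± 0.09. The related genes KLCR1 (-0.25 ± 0.11) and KLCR3 (-0.17 ± 0.08) were not called, nor was KOB1 (0.17 ± 0.09), a gene needed for elongation and cellulose.

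Of 10 genes that supply UDP-glucose, 3 were higher, 1 lower and 6 not called, with a median of 0.097, beside 18.5% higher and 19.8% lower over all loci. The sucrose synthase genes SUS4 and SUS1, whose products split sucrose into fructose and UDP-glucose, were the highest of all genes listed. SUS4 stood at 3.27 ± 0.39 (3.12, 2.12 and 4.58 on the arrays, adjusted p = 0.00106) and SUS1 at 2.45 ± 0.17 (2.13, 2.21 and 2.99, adjusted p = 0.000123). These 2 genes are close relatives, and shared signal between their probes was not tested. UGP1, a UDP-glucose pyrophosphorylase gene, stood at 0.37 ± 0.08 (adjusted p = 0.00929, not called without replicate 1), and SUS6, a sucrose synthase gene of the phloem, was lower at -0.75 ± 0.08 (adjusted p = 0.000755). The cytosolic invertase genes CINV1 and CINV2 were not called.

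Genes that sense or accompany the wall were lower in all 4 cases listed, beside 19.8% of all loci called lower. The receptor kinase gene THE1, whose product monitors walls with too little cellulose, stood at -1.20 ± 0.08 (-1.26, -1.09 and -1.26 on the arrays, adjusted p = 0.00012), a larger fall than that of any cellulose synthase measured. FLA4 stood at -0.50 ± 0.08 (adjusted p = 0.00266). The receptor-like kinase genes FEI1 and FEI2, which promote cellulose synthesis in roots, stood at -0.32 ± 0.08 and -0.29 ± 0.08 (adjusted p of 0.0147 and 0.0262), and without replicate 1 or replicate 3 both calls ended.

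Of 6 cellulose synthase-like D genes, 3 were tested, and CSLD5, which acts in dividing cells, was lower at -0.81 ± 0.09 (adjusted p = 0.00068). CSLD2 and CSLD3 were not called. Xyloglucan, the main polymer that coats cellulose in primary walls, is built by 4 of the listed genes, of which 3 were lower. Over all loci, 19.8% were called lower. The backbone synthase gene CSLC4 was lower at -0.94 ± 0.08 (adjusted p = 0.000296), as were the xylosyltransferase genes XXT1 at -0.52 ± 0.09 (adjusted p = 0.00528) and XXT5 at -0.35 ± 0.09 (adjusted p = 0.018, not called without replicate 1), while XXT2 was not called at -0.09 ± 0.08. BES1, a brassinosteroid transcription factor that binds cellulose synthase promoters, was lower at -0.53 ± 0.11 (adjusted p = 0.0109, not called without replicate 1), and its relative BZR1 stood at 0.01 ± 0.09 (adjusted p = 0.926).

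In all, 50 of 56 listed relatives and pathway genes were tested, with 21 lower, 7 higher and 22 not called and a median of -0.20. That is 42.0% lower beside 19.8% of all loci, and 14.0% higher beside 18.5%. The lists were chosen with earlier results of these data known, so these shares are a description with no test. Without replicate 1 the counts were 12 lower and 5 higher, beside 12.6% lower and 11.7% higher over all loci. They were 2 and 2 with median centring, where only SUS1, SUS4, THE1 and CSLC4 of those called were still called. With median centring the share lower was 4.0% of these genes and 3.38% of all loci. With outlier local backgrounds kept, the calls of CESA7, CESA8, CSI3, KOR3, COBL2, COBL4, AT3G57420, AT1G16860, FEI2 and XXT5 ended. The call of KOR3 also ended with the scanner program's log ratio, those of KOR3 and UGP1 with the deposited series table, and that of AT3G57420 with a normexp offset of 10.

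**Figure D5:**
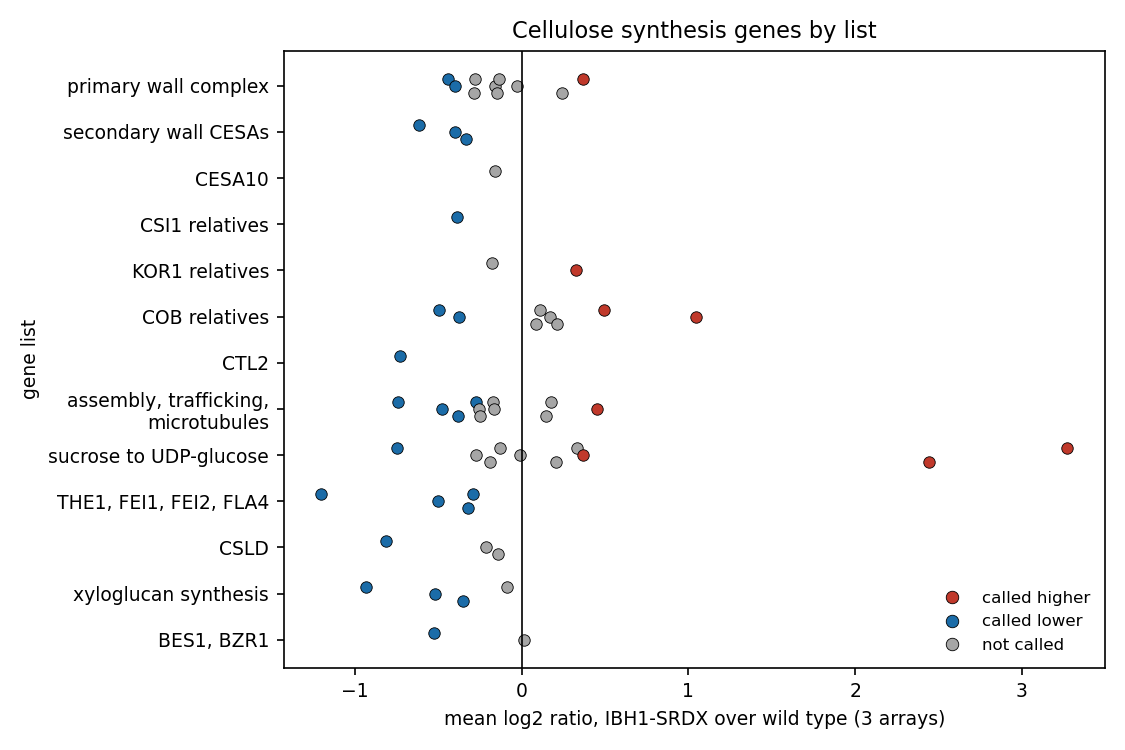
Mean log2 ratio of IBH1-SRDX over wild type (horizontal axis) of each tested gene by list, with points in red (called higher), blue (called lower) or grey (not called). The 10 primary wall genes in the top row lie within -0.44 to 0.37, while SUS1 and SUS4 lie far to the right and THE1 farthest to the left.

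Markers of tissues that contribute to a whole seedling moved in the same comparison, where 19.8% of all loci were called lower and 18.5% higher. All 10 xylem and secondary wall markers, a list that holds CESA4, CESA7, CESA8 and COBL4, were lower, with a summed signal of 9848 to 10190 units in IBH1-SRDX and 15696 to 16504 in wild type. Of 5 markers of dividing cells, 3 were lower and 2 not called, with a summed signal of 7836 to 8190 units against 10650 to 11749. Of 5 root markers, 4 were lower (67020 to 71566 units against 84822 to 87380). Limma called 0 of 5 root hair markers, and RHD2 alone had an unadjusted p below 0.05 (adjusted p = 0.0628). Of 5 leaf markers RCA was lower, fitted on arrays 1 and 3 because its spot on array 2 was marked as an outlier. Among the uncalled leaf markers, RBCS1A was also fitted on arrays 1 and 3 (-0.28) and PSBO1 on array 3 alone (-0.47). None of the xylem, dividing cell, root, root hair or leaf markers was at background. The part of these tissues in the ratios of the 10 genes was not tested.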

How the data were processed

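RNA of whole seedlings was measured on 3 2-colour arrays, each holding both genotypes. Per the labels, Cy3 held IBH1-SRDX on arrays 1 and 3 and Cy5 on array 2. The 10 genes and the lists were chosen with earlier results of these data known.

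The deposited scanner files hold median spot and local background intensity values and a log10 ratio of Cy5 over Cy3, per the file headers; the program was Agilent Feature Extraction, version 9.1.3.1, per the submitters' processing notes. Natural log ratios fill the deposited series table; its slope on the scanner ratio of IBH1-SRDX over wild type was 1.00 on each array with a constant of -0.0929 added, and its column medians were 0.00195, -0.225 and 0.00455. How that constant was set stays unknown.

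Local backgrounds marked as outliers took the median of the unmarked ones. Background was corrected with normexp (offset 50) and ratios by loess. Control spots and outlier spots (91 to 189 per array) were left out, a probe stayed if either genotype exceeded background clearly on each of the 3 arrays, and a locus was represented by its brightest such probe. Ratios, turned to IBH1-SRDX over wild type, were tested against 0 with limma 3.58.1 in R 4.3.3 (files read with the data.table package, version 1.17.8), and p-values were adjusted over 19922 loci by Benjamini-Hochberg. The fit had 2 residual and 4.88 prior degrees of freedom. As 2 of 3 arrays share an orientation, means retain 33.3% of any dye bias; a dye term was an alternative. Normalized signals are per channel after loess and Aquantile. The fold of CRU1 sets the mean signal of IBH1-SRDX over arrays against that of wild type. Wild-type signals under the lowest signal well above background on that array were raised to it. Only the limma step was run on simulated log ratios, and background correction, loess and the probe filter were not.

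All 10 genes were named, with the called pathway genes of smallest adjusted p per list. These were at most 4, or 5 for COB relatives and assembly loci, and all of lists of 3 or fewer. KLCR1, KLCR3, KOB1, CINV1, CINV2, CSLD2, CSLD3 and XXT2 were added after their values were seen. Symbols came from the TAIR10.1 gene table; loci without a symbol there keep their ID. Promoter motifs and protein identities were planned, and no sequence was used here.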

Additional observations from a re-analysis of the deposited data

How the results depend on the processing

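Over 12 alternatives the median of the 10 genes stayed below 0 (-0.32 to -0.08). The median of all loci moved by over 0.1 only with the series table, to -0.15, where the members' median was -0.32. Loci called higher and lower, 3691 and 3949, were 1141 and 1919 with outlier backgrounds kept and 591 and 674 with median centring, and 6369 were lower with the series table. Leaving out 1 replicate gave 2331 to 3902 higher and 2502 to 4331 lower, the lowest without replicate 1.

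Among the 10 genes, calls were 1 higher and 2 lower. With outlier backgrounds kept 0 were higher, with median centring 0 were higher and 0 lower, and with a dye term 5 were lower. Over all loci, 5.73% were higher with outlier backgrounds kept, 2.97% higher and 3.38% lower with median centring, and 24.1% lower with a dye term. Leaving out 1 replicate gave 0 to 2 higher and 1 to 4 lower, beside 11.7% to 19.6% higher and 12.6% to 21.8% lower over all loci. Of the pathway genes, 7 higher and 21 lower, 4 were higher with outlier backgrounds kept and 2 higher and 2 lower with median centring. With 1 replicate left out, 12 to 21 of them were lower.

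Median centring ended the calls of CESA3 (-0.62), CSI1 (-0.52) and CESA9 (0.30), and kept outlier backgrounds that of CESA9 (0.24). A dye term, under which array 2 weighs as much as arrays 1 and 3 together, called CESA1 (-0.25), COB (-0.37) and CTL1 (-0.31). COB was also called with the Feature Extraction ratio (-0.35) and the series table (-0.49). With 1 replicate left out, means ran from -0.29 to 0.069 for CESA1, 0.18 to 0.31 for CESA5 (called without replicate 2), 0.32 to 0.43 for CESA9, -0.44 to -0.35 for CSI1, -0.10 to 0.064 for KOR1, -0.38 to -0.13 for COB and -0.39 to -0.21 for CTL1. The difference of CESA1 and CESA6 ran from -0.069 (without replicate 3 or, nearly the same, 1) to 0.18. The cause of these shifts was not tested.

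The limma test of ratios against 0 is itself paired, since each array holds a replicate pair, and no separate block was fitted. Slide and scan did not divide the arrays.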
